A study of Mus musculus with 18 samples.

Results

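The BCL2 family genes *Bmf*, *Bcl2l11*, *Bcl2*, *Bcl2l1*, *Mcl1*, *Pmaip1*, *Bbc3*, *Bax*, *Bak1*, and *Bik* were followed in murine brown preadipocytes treated with FGF6. They are 10 of the 48023 genes in the count table, found by matching their identifiers to GENCODE on the mouse genome GRCm38. The set was chosen on the measured values of *Bmf*, for its large fall in FGF6 against vehicle, so the *Bmf* values are given as a description without a test, and the other 9 genes were compared by a model fitted to the whole table.

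The cells were an immortalized line of brown preadipocytes, the undifferentiated precursors of brown adipocytes, which had been generated with SV40 T antigen and were kept in high glucose DMEM with 10% FBS. FGF6, a paracrine fibroblast growth factor, was added to the growth media at 200 ng/ml, and control cells received vehicle (Veh). RNA was sequenced after 4, 8, and 24 h from 3 libraries in each of the 6 groups, 18 in all. All groups share the T antigen used to make the line, which is known to bind p53. Whether the 3 libraries of a group came from separate cultures is not stated, and the p-values then measure only the spread between these libraries.

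Total counts per library lay between 24327816 and 33471980, and each of the 18 libraries was nearest to the mean of the other libraries of its own group. Veh 24 h replicate 3 stood apart within its group, with a chi-square per gene of 35.7 and 39.2 against its replicates, where the other pairs of replicates had 2.37 to 7.35. Without it, 4 of the 8 BCL2 family genes tested were still higher and 4 lower with FGF6 at 24 h, the 24 h log2 fold change of *Bmf* was −4.09 in place of −4.13, and that of *Bcl2* 0.99 in place of 0.77. *Spry2*, *Spry4*, *Dusp6*, *Etv4*, and *Etv5*, which FGF signaling is known to induce, all rose at each time point, with *Etv4* higher by 5.01 ± 0.09 (log2, SE) at 24 h. Of 6 preadipocyte markers, *Dlk1* was at 0 and the other 5 were measured. The summed level of the list was 1260 to 1320 CPM in vehicle and 335 to 350 CPM with FGF6 at 24 h, with 4 of 5 markers lower, led by *Ly6a* (log2 fold change −2.91 ± 0.11), and *Cd34* higher (1.38 ± 0.08). Mature adipocyte markers summed to 5.55 to 6.13 CPM in vehicle and 0.0367 to 0.321 CPM with FGF6 at 24 h, with all 3 tested markers lower, and *Lep* was at 0. Endothelial markers summed to 0.308 to 5.65 CPM, and *Cdh5* rose by 5.84 ± 0.47 (log2) at 24 h. Leukocyte markers summed to 2.99 to 16.7 CPM, nearly all of it *Cd68*, and epithelial markers to 0.126 to 1.39 CPM. The part of these shifts in the results that follow was not tested.

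Proteins of the BCL2 family set whether the outer membrane of the mitochondria stays intact. The pro-survival members (BCL2, BCL-XL from *Bcl2l1*, and MCL1) hold the effectors BAX and BAK in check, and the effectors open the membrane, release cytochrome c, and start the caspase cascade. The BH3-only members (BMF, BIM from *Bcl2l11*, PUMA from *Bbc3*, NOXA from *Pmaip1*, and BIK) bind the pro-survival proteins and set the effectors free. Growth factors are known to act on this balance, partly through FoxO transcription factors, which PI3K and AKT signaling keeps out of the nucleus, and through MAP kinases, which mark BIM for degradation. All values here are of RNA, and none of them measures protein or cell death.

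On GRCm38, *Bmf* lies on chromosome 2 (118528757 to 118549687, minus strand) and *Bcl2l11* on the same chromosome (128126038 to 128162547, plus strand), as does *Bcl2l1* (152780668 to 152831728, minus strand). *Bbc3* (16308393 to 16318205, plus strand) and *Bax* (45461697 to 45466898, minus strand) are on chromosome 7. *Mcl1* is on chromosome 3 (95658788 to 95663176, plus strand), *Bcl2* on chromosome 1 (106538178 to 106714274, minus strand), *Bak1* on chromosome 17 (27019810 to 27029009, minus strand), and *Bik* on chromosome 15 (83526862 to 83544634, plus strand). Of the 9157 exonic bases of *Bcl2*, 558 overlap a gene on the opposite strand, as do 614 of 2407 bases of *Bak1*, and 192 of 1576 bases of *Bax* overlap a gene on the same strand. The strand setting of the counting and the treatment of overlapping genes are not stated, so the counts of these 3 genes are uncertain in that respect.

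Promoter sequences from RefSeq (GRCm38.p6) were taken for 8 of the 10 genes, 15 promoters in all. *Pmaip1* was left out of this search, and no promoter of *Bik* was among those taken. The 250 bases before each start were searched on both strands for a FoxO motif (GTAAACA), an ETS motif (CCGGAAG), and a CCAAT box (CCAAT). Sequences are shown for the 3 BH3-only genes with the most reads among the 10 genes and for *Mcl1*. At 24 h these 3 genes were lower with FGF6 and *Mcl1* was higher. The FoxO motif was in 1 promoter of *Bcl2l11* and 1 of *Bbc3*, and in 3.17% of all 32851 promoters. The ETS motif was in 1 promoter of *Bcl2l11* and 1 of *Mcl1*, and in 6.91% of all promoters. The outermost promoter of *Bmf* held 3 CCAAT boxes, 159, 88, and 34 bases before the start, and 33.8% of all promoters held at least 1. Another promoter of *Bmf* and 1 of *Bbc3* held 1 CCAAT box, and those of *Bcl2l11* held 1 and 2. A match in these letters is a description of the sequence only, and binding was not measured. Capitals mark the CCAAT boxes in *Bmf* (chr2:118549687-118549936, minus strand), the FoxO motif 227 bases before the start in *Bcl2l11* (chr2:128125788-128126037, plus strand) and 167 bases before it in *Bbc3* (chr7:16310011-16310260, plus strand), and the ETS motif 63 bases before the start in *Mcl1* (chr3:95658471-95658720, plus strand).
Bmf: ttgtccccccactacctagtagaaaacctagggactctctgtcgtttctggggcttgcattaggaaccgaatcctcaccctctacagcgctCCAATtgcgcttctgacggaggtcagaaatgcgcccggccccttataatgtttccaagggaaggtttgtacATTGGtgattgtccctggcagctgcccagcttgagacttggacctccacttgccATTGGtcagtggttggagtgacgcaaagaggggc
Bcl2l11: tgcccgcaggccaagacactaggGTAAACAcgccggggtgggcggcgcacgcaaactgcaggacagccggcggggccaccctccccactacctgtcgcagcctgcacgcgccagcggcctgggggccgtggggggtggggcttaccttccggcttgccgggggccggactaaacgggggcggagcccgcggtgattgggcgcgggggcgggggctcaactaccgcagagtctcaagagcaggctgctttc
Bbc3: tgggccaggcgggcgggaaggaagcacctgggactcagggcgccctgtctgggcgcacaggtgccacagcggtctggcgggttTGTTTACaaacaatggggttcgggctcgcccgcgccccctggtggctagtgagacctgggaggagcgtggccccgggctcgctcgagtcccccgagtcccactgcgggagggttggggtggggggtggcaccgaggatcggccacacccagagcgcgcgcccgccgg
Mcl1: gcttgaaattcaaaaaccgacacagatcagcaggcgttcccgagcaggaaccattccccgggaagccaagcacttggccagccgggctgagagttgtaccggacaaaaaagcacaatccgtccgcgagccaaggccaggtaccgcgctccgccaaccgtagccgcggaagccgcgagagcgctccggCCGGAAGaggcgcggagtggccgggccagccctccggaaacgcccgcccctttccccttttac

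*Bmf*, whose protein is known for triggering death when cells lose attachment or growth factors, was the gene that led to this set. Levels are in CPM, counts scaled to a common library size after TMM normalization. In vehicle, *Bmf* was at 3.73, 3.77, and 4.41 CPM at 4 h, at 9.94, 11.5, and 10.6 CPM at 8 h, and at 18.3, 22.9, and 20.7 CPM at 24 h. With FGF6, it was at 0.259, 0.287, and 0.325 CPM at 4 h, at 0.0651, 0.0672, and 0.288 CPM at 8 h, and at 1.71, 0.714, and 1.10 CPM at 24 h. Every FGF6 library was below every vehicle library of any time point. The order of the group means ran from FGF6 8 h through FGF6 4 h, FGF6 24 h, Veh 4 h, and Veh 8 h to Veh 24 h, and only the first pair of neighbors overlapped.

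**Figure D1:**
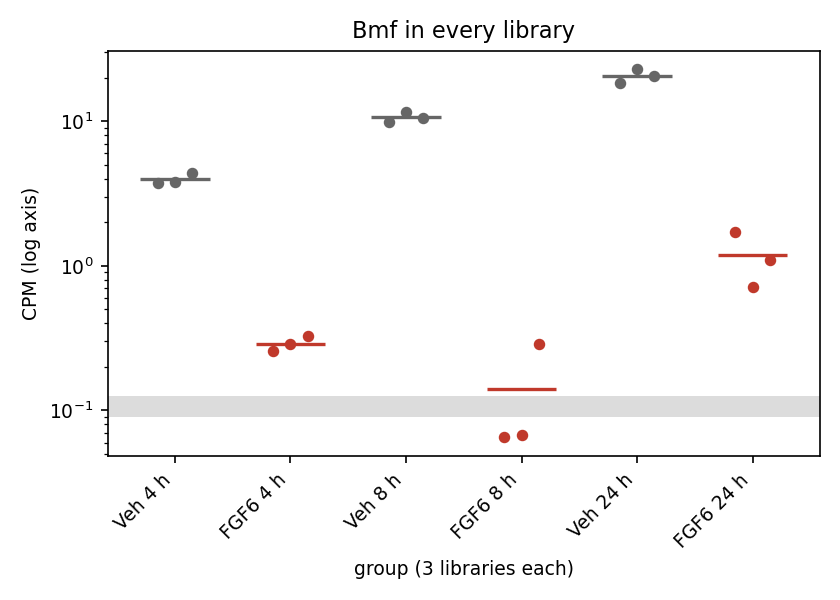
*Bmf* in each of the 18 libraries (points) with the group mean (line), as CPM on a log axis, with vehicle in gray and FGF6 in red. The gray band marks what 3 counts are worth in these libraries (0.0905 to 0.126 CPM), and the vehicle mean went from 3.97 to 20.6 CPM while the FGF6 means stayed between 0.14 and 1.18 CPM.

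The fitted log2 fold change of *Bmf* was −3.76 ± 0.28 (SE) at 4 h, −6.31 ± 0.27 at 8 h, and −4.13 ± 0.17 at 24 h. Other methods gave larger SEs, at 8 h −6.44 ± 0.53 with limma and voom and −6.32 ± 0.45 with DESeq2. The fitted SE at 8 h is therefore too small to stand for the full error on so few reads. Ranked by log2 fold change among the 15071 genes kept, *Bmf* was number 18 from the lowest at 4 h, number 8 at 8 h, and number 320 at 24 h. In bulk libraries, fewer cells that express a gene and less RNA per cell cannot be told apart. The FGF6 side rests on few reads. At 8 h the FGF6 libraries held 2, 2, and 7 counts, 11 in all against 986 in vehicle, which is an 82.3-fold difference per total count with an exact (Clopper-Pearson) 95% interval of 45.8 to 165. At 4 h it was 24 against 369 counts (13.7-fold, 9.07 to 21.7), and at 24 h 97 against 1772 counts (17.7-fold, 14.4 to 21.9). These intervals cover counting error only, with reads as the units. They take no account of the choice of *Bmf* for its fall, so they are a description and not a test. Without FGF6 8 h replicate 3, which held the 7 counts, the 8 h value was −7.20. It then rested on 2 counts in each remaining FGF6 library, too few for a usable SE.

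The control itself moved. In vehicle, the fitted level of *Bmf* was higher by 1.43 ± 0.14 (log2, SE) at 8 h than at 4 h, and by 2.38 ± 0.13 at 24 h than at 4 h, a 5.20-fold difference. The FGF6 mean at 24 h (1.18 ± 0.504 CPM, SD, n = 3) was above those at 4 h (0.290 ± 0.0332 CPM) and 8 h (0.140 ± 0.128 CPM). The FGF6 libraries at 24 h overlapped with neither of these groups.

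Beyond *Bmf*, 9 genes remained, of which 8 had enough counts for a test, and *Bik* did not. At 4 h, 3 of the 8 were higher with FGF6 and 2 were lower, where 28.6% of all genes tested were higher and 34.2% lower (edgeR's quasi-likelihood test, adjusted p under 0.05 over all genes). With library sizes alone as the scaling, 33.3% of all calls at 4 h were higher, against 45.5% with TMM. At 8 h, 4 were higher and 3 lower, against 32.4% and 38.4% of all genes. At 24 h, 4 were higher and 4 lower, against 35.9% and 37.9% of all genes. The FGF6 and vehicle libraries did not overlap for 5, 7, and 8 of the 8 genes at 4, 8, and 24 h, and for 66.2%, 73.8%, and 74.8% of all genes. Over the 8 genes, the median log2 fold change was −0.02, 0.41, and 0.02, beside −0.05, −0.05, and −0.02 over all genes. These counts of 8 genes are small beside a background in which most genes were called, and nothing particular to the family is read from them.

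**Figure D2:**
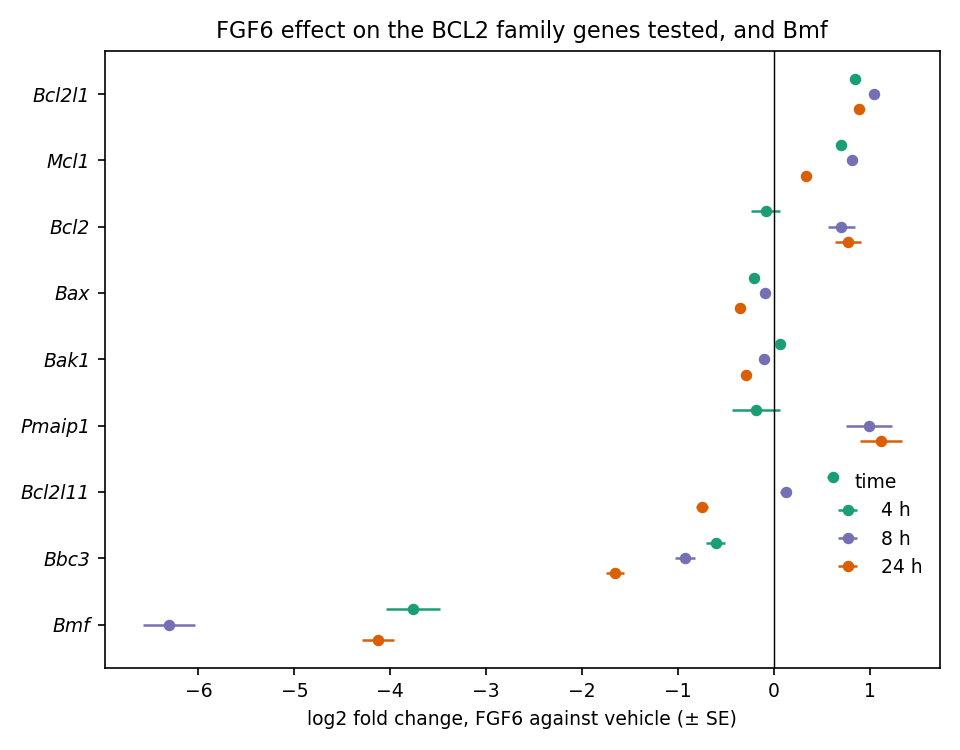
Log2 fold change of FGF6 against vehicle (x axis, with SE as bars) for 8 tested BCL2 family genes and for *Bmf* at 4, 8, and 24 h. *Bcl2l1* and *Mcl1* lie above 0 at all 3 times, *Bbc3* and *Bmf* below 0, and *Bcl2l11* moves from 0.61 to −0.75.

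Of the 3 pro-survival genes, *Bcl2l1* and *Mcl1* were higher with FGF6 at all times and *Bcl2* at 8 and 24 h. *Bcl2l1*, which encodes BCL-XL, was at 84.1, 82.6, and 86.4 CPM in vehicle and at 151 CPM in all 3 FGF6 libraries at 4 h. At 8 h it was at 71.1, 63.9, and 65.8 CPM in vehicle and 140, 133, and 140 CPM with FGF6, and at 24 h at 81.0, 75.7, and 77.2 CPM against 146, 143, and 141 CPM. All 9 FGF6 libraries were above all 9 vehicle libraries. The log2 fold change was 0.84 ± 0.04 at 4 h (adjusted p = 3.4e-16), 1.04 ± 0.04 at 8 h (adjusted p = 3.33e-18), and 0.88 ± 0.04 at 24 h (adjusted p = 6.24e-17).

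*Mcl1*, the gene of a short-lived pro-survival protein, was at 207, 206, and 207 CPM in vehicle and 329, 341, and 337 CPM with FGF6 at 4 h. It was at 166, 158, and 166 CPM against 295, 284, and 282 CPM at 8 h, and at 194, 187, and 195 CPM against 244, 239, and 239 CPM at 24 h. Again all FGF6 libraries exceeded all vehicle libraries, with the smallest distance at 24 h. The rise was 0.70 ± 0.03 (log2, adjusted p = 3.2e-16), 0.81 ± 0.03 (adjusted p = 9.56e-18), and 0.33 ± 0.03 (adjusted p = 6.12e-10) at 4, 8, and 24 h. The effect at 24 h was smaller than that at 8 h by an interaction test (difference −0.49 ± 0.04, adjusted p = 1.21e-09).

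*Bcl2*, the founding member of the family, was low in these cells and came up later. At 4 h it was at 6.75, 6.18, and 4.54 CPM in vehicle and 5.62, 5.93, and 4.75 CPM with FGF6, and the groups overlapped (log2 fold change −0.09 ± 0.15, adjusted p = 0.599). At 8 h it was at 4.89, 5.37, and 4.48 CPM against 8.40, 6.96, and 8.67 CPM (0.70 ± 0.14, adjusted p = 0.000109). At 24 h it was at 4.48, 4.01, and 6.05 CPM against 8.17, 7.57, and 8.77 CPM (0.77 ± 0.14, adjusted p = 3.53e-05). The effect at 8 h exceeded that at 4 h by 0.79 ± 0.20 (adjusted p = 0.00412).

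**Figure D3:**
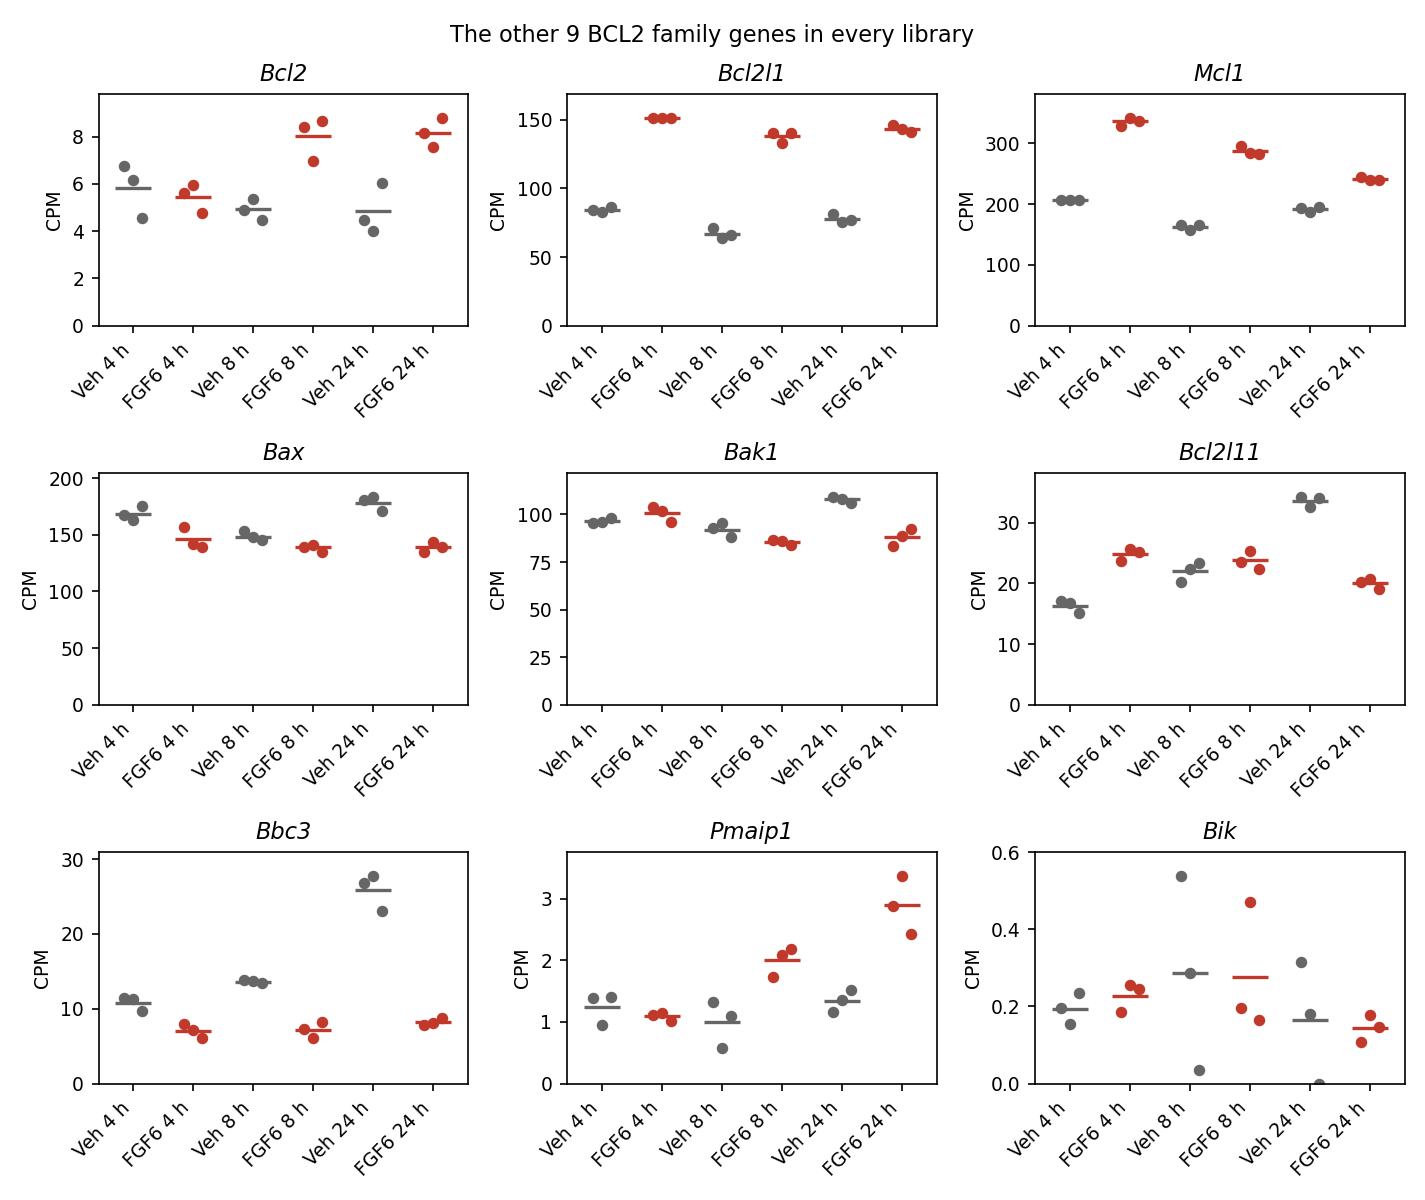
CPM (y axis, from 0) of the other 9 genes in every library, with group means as lines, vehicle in gray and FGF6 in red. FGF6 libraries are above vehicle in *Bcl2l1* and *Mcl1* at each time, *Bbc3* rises in vehicle to 25.9 CPM at 24 h while the FGF6 means stay between 7.08 and 8.23 CPM, and *Bik* is at most 0.537 CPM.

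The effector genes *Bax* and *Bak1* were lower with FGF6 at 24 h, by 1.28-fold and 1.22-fold. *Bax* means were 168 ± 5.96, 148 ± 4.31, and 178 ± 6.20 CPM in vehicle (SD, n = 3) and 146 ± 9.75, 139 ± 3.02, and 139 ± 4.59 CPM with FGF6 at 4, 8, and 24 h. The log2 fold change was −0.21 ± 0.04 at 4 h (adjusted p = 0.000114), −0.10 ± 0.04 at 8 h (adjusted p = 0.0399), and −0.36 ± 0.04 at 24 h (adjusted p = 2.35e-08). *Bak1* means were 96.5 ± 1.36, 92.1 ± 3.69, and 108 ± 1.27 CPM in vehicle and 101 ± 4.20, 85.5 ± 1.52, and 88.1 ± 4.44 CPM with FGF6. Its log2 fold change was 0.06 ± 0.04 at 4 h (adjusted p = 0.155), −0.11 ± 0.04 at 8 h (adjusted p = 0.0159), and −0.29 ± 0.04 at 24 h (adjusted p = 2.4e-07). The *Bax* call at 8 h was lost without any 1 of 12 libraries (log2 fold change −0.10 to −0.04, adjusted p 0.065 to 0.483), namely each FGF6 4 h and Veh 24 h library, Veh 8 h replicates 1 and 2, FGF6 8 h replicates 1 and 3, and FGF6 24 h replicates 1 and 3. The *Bak1* call at 8 h was lost without any 1 of 10 libraries (−0.08 to −0.05, adjusted p 0.1 to 0.32), namely each FGF6 4 h and Veh 24 h library, Veh 8 h replicate 2, FGF6 8 h replicate 3, and FGF6 24 h replicates 1 and 3. In contrast, *Bak1* at 4 h passed the threshold without FGF6 4 h replicate 3, FGF6 24 h replicate 1, or FGF6 24 h replicate 3 (0.09 to 0.12, adjusted p 0.0141 to 0.0418). It also passed with at least 10 counts in every library (0.09, adjusted p = 0.0335) and with only the 4 h libraries (0.1, adjusted p = 0.0284). With library sizes alone its value turned to −0.04.

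Among the BH3-only genes, *Bbc3* fell at every time point, and by more at 24 h than at 4 or 8 h. *Bbc3* encodes PUMA, a binder of all pro-survival proteins that p53 and FoxO factors are known to induce. In vehicle it was at 11.5, 11.3, and 9.75 CPM at 4 h, at 13.9, 13.7, and 13.4 CPM at 8 h, and at 26.8, 27.7, and 23.1 CPM at 24 h. With FGF6 it was at 7.91, 7.20, and 6.13 CPM, then 7.32, 6.12, and 8.18 CPM, and finally 7.88, 8.04, and 8.77 CPM. The FGF6 libraries of neighboring time points overlapped, whereas the vehicle groups did not. The log2 fold change was −0.61 ± 0.10 (adjusted p = 1.48e-05), −0.93 ± 0.10 (adjusted p = 9.43e-09), and −1.66 ± 0.09 (adjusted p = 2.33e-14) at 4, 8, and 24 h, a 3.15-fold lower level at the last. The effect at 24 h differed from that at 8 h by −0.73 ± 0.14 (adjusted p = 0.000132) and from that at 4 h by −1.05 ± 0.14 (adjusted p = 8.1e-07), and in vehicle the level rose by 1.26 ± 0.09 (adjusted p = 6.41e-12) from 4 to 24 h.

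*Bcl2l11*, the gene of BIM, was higher with FGF6 at 4 h and lower at 24 h. At 4 h it was at 17.1, 16.8, and 15.1 CPM in vehicle and 23.7, 25.7, and 25.2 CPM with FGF6, a rise of 0.61 ± 0.06 (log2, adjusted p = 8.4e-09). At 24 h it was at 34.2, 32.6, and 34.1 CPM against 20.2, 20.7, and 19.1 CPM, with a log2 fold change of −0.75 ± 0.06 (adjusted p = 4.47e-11). The groups did not overlap at either time. At 8 h they did, at 20.3, 22.3, and 23.3 CPM against 23.6, 25.4, and 22.4 CPM (0.12 ± 0.06, adjusted p = 0.0884). This 8 h value passed the threshold without any 1 of 10 libraries (0.16 to 0.20, adjusted p 0.0112 to 0.038), namely each FGF6 4 h and Veh 24 h library, Veh 8 h replicate 3, FGF6 8 h replicate 3, and FGF6 24 h replicates 1 and 3. The 8 h value also passed with DESeq2 (0.16, adjusted p = 0.0365) and in edgeR with only the 8 h libraries (0.15, adjusted p = 0.046). The interaction between 24 and 4 h was −1.36 ± 0.09 (adjusted p = 2.04e-12). The FGF6 means lay between 20.0 and 24.9 CPM, and the vehicle mean went from 16.3 to 33.6 CPM (1.04 ± 0.06, log2, adjusted p = 2.97e-13).

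*Pmaip1*, whose product NOXA mainly binds MCL1, moved in the opposite direction to *Bbc3*, at a low level. It had 18 to 45 counts per library in vehicle and 25 to 94 with FGF6. At 4 h it was at 1.39, 0.958, and 1.40 CPM in vehicle and 1.11, 1.15, and 1.02 CPM with FGF6, with overlapping groups (−0.19 ± 0.25, adjusted p = 0.544). At 8 h it was at 1.33, 0.572, and 1.10 CPM against 1.73, 2.08, and 2.18 CPM (0.99 ± 0.24, adjusted p = 0.000683), and at 24 h at 1.16, 1.36, and 1.51 CPM against 2.88, 3.36, and 2.42 CPM (1.11 ± 0.22, adjusted p = 7.6e-05).

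*Bik*, the fifth BH3-only gene, had 0 to 17 counts per library and was not kept for the test. Its group means lay between 0.145 and 0.286 CPM, and the FGF6 and vehicle libraries overlapped at all 3 times. A difference was not detectable at this depth.

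Levels of different genes were set side by side only after division by exonic length (CPM per kb). In vehicle at 4 h, the order was *Bax* (107), *Mcl1* (60.4), *Bak1* (40.1), *Bcl2l1* (18.4), *Bbc3* (5.11), *Bcl2l11* (2.03), *Bmf* (0.756), *Bcl2* (0.636), *Pmaip1* (0.458), and *Bik* (0.122 CPM per kb). *Bmf*, *Bcl2*, and *Pmaip1* were thus all under 1 CPM per kb there. In vehicle at 24 h, *Bmf* had reached 3.92 ± 0.435 CPM per kb (SD, n = 3), close to *Bcl2l11* at 4.19 ± 0.113, and *Bbc3* 12.2 ± 1.15.

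Summed over the 3 pro-survival genes, the level was 79.5 ± 0.596, 62.9 ± 1.99, and 73.7 ± 1.74 CPM per kb in vehicle and 132 ± 1.70, 115 ± 2.62, and 102 ± 1.42 CPM per kb with FGF6 at 4, 8, and 24 h. The 5 BH3-only genes of the set together were at 8.47 ± 0.464, 11.7 ± 0.0997, and 20.9 ± 1.23 CPM per kb in vehicle and at 7.03 ± 0.358, 7.29 ± 0.265, and 7.74 ± 0.0882 CPM per kb with FGF6. The BH3-only sum in vehicle lay between 7.97 and 8.88 CPM per kb at 4 h and between 19.6 and 22.1 at 24 h, whereas the 9 FGF6 libraries stayed between 6.62 and 7.84 CPM per kb. These sums include *Bmf*, for which the set was chosen, and the largest share of the pro-survival sum is *Mcl1*. They are given without a test. The BH3-only genes *Bid* and *Bad* lie outside the set and were at higher levels, so the sum does not stand for all BH3-only genes. *Bid* was at 43.1, 34.8, and 61 CPM per kb in vehicle and 53, 38.3, and 28.6 with FGF6 at 4, 8, and 24 h. *Bad* was at 18.8, 23.2, and 25.2 CPM per kb in vehicle and 14, 19.2, and 20.8 with FGF6.

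**Figure D4:**
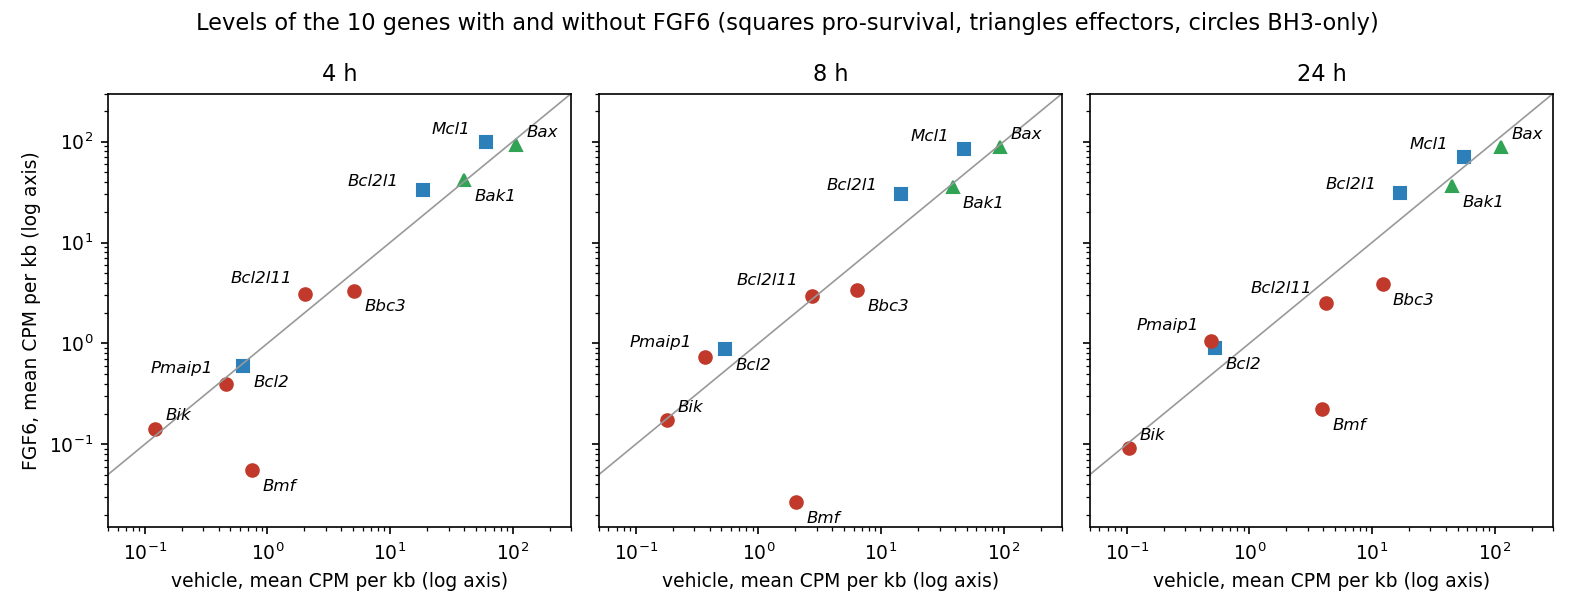
Mean CPM per kb of the 10 genes with FGF6 (y axis) against vehicle (x axis), both on log axes, at 4, 8, and 24 h, with the line of equal levels. *Mcl1* and *Bcl2l1* (squares) lie above the line, *Bax* and *Bak1* (triangles) near it, and *Bmf* below it at every time, from 0.756 to 0.0553 at 4 h and from 2.03 to 0.0266 CPM per kb at 8 h.

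In vehicle alone, 5 of the 8 tested genes differed between 4 and 8 h, where 43% of all genes did. Between 8 and 24 h, 6 of 8 did, all of them higher at 24 h, against 49.2% of all genes in either direction. Between 4 and 24 h it was 5 of 8, against 60.8%. From 4 to 24 h, *Bcl2l11* and *Bbc3* rose by 1.04 and 1.26 (log2) and *Bak1* by 0.16 ± 0.04, and *Bcl2l1* and *Mcl1* fell by 0.11 each (SE 0.04 and 0.03). The *Bcl2l1* call was lost without Veh 4 h replicate 3 (−0.10, adjusted p = 0.0545).

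The FGF6 effect differed between 4 and 8 h in 6 of the 8 genes (30.6% of all genes), between 8 and 24 h in 6 (45.1%), and between 4 and 24 h in 7 (53.5%). The 6 differences between 8 and 24 h were all negative, that is, the FGF6 effect on *Bcl2l11*, *Bcl2l1*, *Mcl1*, *Bbc3*, *Bax*, and *Bak1* was lower at 24 h than at 8 h. The same 6 genes were higher in vehicle at 24 h than at 8 h. The difference in effect subtracts that change, so these results are not independent of each other. The shares of all genes count either direction. All 3 comparisons share libraries.

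The 5 genes whose log2 CPM followed *Bmf* most closely over the 18 libraries, among 12268 genes with a mean of at least 1 CPM, were *Glt8d1* and *Abhd5* (Pearson's r = 0.981 each), *Rab9* (0.979), *Lrrc17* (0.978), and *Epm2aip1* (0.978). The most opposite included *Phb2* (−0.989), *Wdr18* (−0.985), *Htra2* (−0.984), and *Trim27* (−0.984). *Htra2* encodes a mitochondrial protease that blocks inhibitors of apoptosis once released, and *Phb2* a prohibitin of the inner mitochondrial membrane. The sizes of their changes differed, with a log2 fold change at 8 h of −4.34 for *Lrrc17*, −1.10 for *Glt8d1*, and 0.71 for *Htra2*. Within the family, r with *Bmf* was 0.90 for *Bbc3*, 0.69 for *Bax*, 0.49 for *Bak1*, 0.17 for *Bcl2l11*, −0.38 for *Pmaip1*, −0.60 for *Bcl2*, −0.89 for *Bcl2l1*, and −0.90 for *Mcl1*. In the same order, they lay at percentiles 94.3, 77.5, 66.4, 52.8, 34.9, 26.2, 8.4, and 7.5 of the genes compared. The points share treatment, time, and library, so these values describe the likeness of patterns over 6 groups.

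Further relatives and pathway genes were read from lists, whose counts stand beside 28.6%, 32.4%, and 35.9% of all genes tested that were higher and 34.2%, 38.4%, and 37.9% that were lower at 4, 8, and 24 h. The pro-survival gene *Bcl2l2* (BCL-W) was higher by 0.32, 0.28, and 0.25 (log2, SE 0.06 each) at 4, 8, and 24 h, so that 3, 4, and 4 of the 4 pro-survival genes tested were higher at the 3 times. *Bcl2l10*, *Bcl2a1a*, and *Bcl2a1b* had no count in any library, and *Bcl2a1d* had at most 3. *Bok*, an effector relative, was also higher, by 0.32, 0.34, and 0.40 (SE 0.06 each). *Bid*, which links death receptors to mitochondria, was higher by 0.30 ± 0.04 at 4 h and 0.14 ± 0.04 at 8 h and lower at 24 h (−1.09 ± 0.04, adjusted p = 1.67e-18), when it was at 216 CPM in vehicle and 101 CPM with FGF6. *Bad*, a target of growth factor signaling, was lower at all times (−0.42, −0.27, and −0.28, SE 0.05 each). *Hrk* had at most 2 counts. Of 5 BH3-only genes tested other than *Bmf*, 2 were higher and 2 lower at 4 h and at 8 h, and 1 was higher and 4 lower at 24 h. The mitophagy receptors *Bnip3* (−0.60, −1.34, and 0.50, SE 0.07, 0.07, and 0.06) and *Bnip3l* (−0.55, −0.68, and 0.21, SE 0.06 each) were lower at 4 and 8 h and higher at 24 h. *Bcl2l13* was lower at all times (−0.35, −0.24, and −0.19, SE 0.03 each) and *Bcl2l12* at 8 h (−0.20 ± 0.09, adjusted p = 0.0475). *Bcl2l14* and *Bcl2l15* had at most 6 and 9 counts per library.

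Downstream of the mitochondria, 3 of 8 apoptosome and caspase genes were higher and 3 lower at 24 h, where 35.9% of all genes were higher and 37.9% lower. *Casp6* was higher by 1.16 ± 0.05 at 24 h. Of 7 inhibitors of apoptosis and their antagonists, 2 were higher and 3 lower at 24 h, with *Htra2* highest (0.57 ± 0.03) and *Birc3*, the gene of cIAP2, lowest (−0.84 ± 0.09). The list medians at 24 h were −0.04 and −0.07, beside −0.02 over all genes.

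*Fas*, the death receptor bound by FAS ligand, had the largest decrease at 24 h among the genes named here from the survival and death lists. It was at 17.8, 26.6, and 25.5 CPM (means) in vehicle and at 5.65, 3.14, and 0.823 CPM with FGF6. Its log2 fold change was −1.66 ± 0.10, −3.08 ± 0.11, and −4.95 ± 0.14 (adjusted p = 2.23e-20 at 24 h). *Cflar*, which encodes the caspase-8 inhibitor cFLIP, rose by 1.41 ± 0.05 at 4 h, 0.92 ± 0.05 at 8 h, and 0.48 ± 0.05 at 24 h. Of the 7 genes of the list, 1 was higher and 4 lower at 24 h, beside the same shares of all genes.

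Factors that are known to act on the BH3-only genes were read from the same libraries. All 4 FoxO factors were lower at each of the 3 times (medians −0.76, −0.94, and −1.0), where 34.2%, 38.4%, and 37.9% of all genes were lower. *Foxo1* had the largest decrease of the 4 at 24 h (−1.15 ± 0.07), after −1.0 ± 0.06 and −1.12 ± 0.06 at 4 and 8 h. At 4 and 8 h *Foxo6* had the largest (−1.19 ± 0.31 and −1.99 ± 0.37), on few reads. It had 13 to 14 counts per FGF6 library at 4 h and 3 to 11 at 8 h. In vehicle from 4 to 24 h, *Foxo1* changed by −1.02 ± 0.06 (log2), *Foxo3* by 0.37 ± 0.04, and *Foxo4* by 0.65 ± 0.05. *Foxo6* changed by −0.32 ± 0.27 and was not called. A link between these factors and the BH3-only genes was not tested. Of 11 tested genes in the list of p53 and its targets outside the family, 4 were higher and 7 lower at 4 and 8 h, and 3 were higher and 8 lower at 24 h (medians −0.45, −0.68, and −1.14). *Trp53* itself rose by 0.14, 0.54, and 0.32 (SE 0.03 each), and *Trp53inp1* had the largest decrease, −2.94 ± 0.06 at 24 h, from 141 CPM in vehicle to 18.4 CPM with FGF6. Of 7 partners of BCL2 family proteins, 4 were higher and 2 lower at 24 h. *Vdac2*, a channel of the outer membrane that holds BAK, rose by 0.58 ± 0.03 at 24 h, and *Btrc*, a ubiquitin ligase subunit, was lower (−0.18 ± 0.06).

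**Figure D5:**
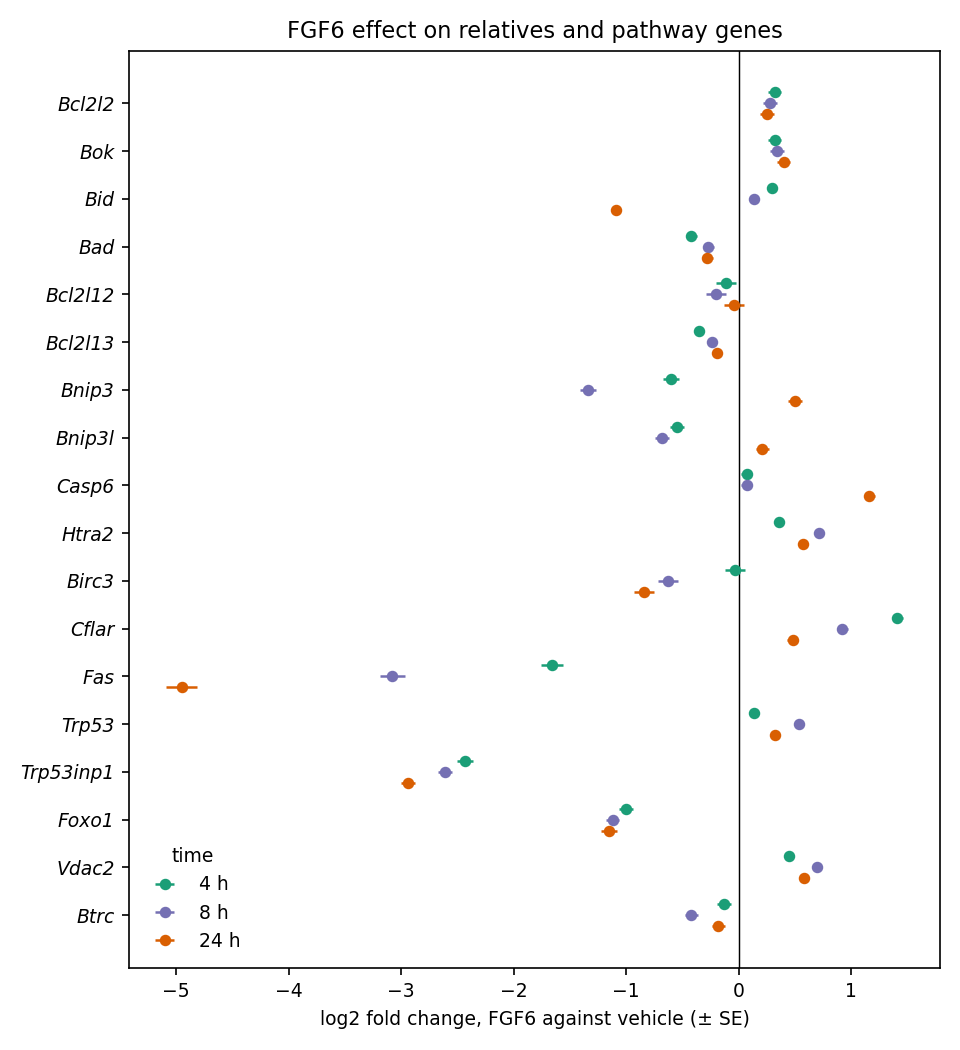
Log2 fold change of FGF6 against vehicle (x axis, with SE as bars) at 4, 8, and 24 h for further BCL2 family genes and for genes with the largest increase or decrease at 24 h in the caspase, inhibitor, death receptor, p53, FoxO, and partner lists. *Fas* falls to −4.95 and *Trp53inp1* to −2.94 at 24 h, and *Cflar* is highest at 4 h (1.41).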

How the data were processed

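RNA-seq was analysed from brown preadipocytes given vehicle or FGF6 for 4, 8, or 24 h, with groups and replicate numbers taken from the sample labels and the dose from the study's description of its data. The authors aligned reads to GRCm38.p4 with STAR, counted them over GENCODE genes with Subread featureCounts, and deposited raw counts per gene, without normalization. Versions, annotation release, and strand setting are not given in the sources used here, and how reads that map to several places were treated is not given either. The study's own fit used limma with voom at an FDR under 0.25.

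From the deposited counts, edgeR 4.0.16 in R 4.3.3 kept 15071 of 48023 genes (filterByExpr with the 6 groups), computed TMM factors (0.951 to 1.05), and fitted the quasi-likelihood model with 6 group means, which used all 18 libraries. Benjamini-Hochberg adjustment ran over all genes kept, with a threshold of 0.05. Standard errors are those implied by the F statistic, and they can be too small for genes with few counts. Fitted folds of genes with few counts depend on edgeR's prior count. CPM values were obtained from counts and TMM-scaled totals, and 3 counts were worth 0.0905 to 0.126 CPM. Log2 CPM for the correlations used a prior count of 2. Symbols, positions, and exonic lengths came from GENCODE M21 on GRCm38 (98.3% of identifiers matched). The method was also run on simulated counts in which only a small share of genes changed. Most genes were called in the data, so that run does not test the scaling.

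The 10 genes, the gene lists, the rules, and the tests were chosen with earlier results of these data known. All 10 genes, all further BCL2 family genes listed, and of each other list the genes with the largest increase and largest decrease at 24 h past the threshold were named. For likeness to *Bmf*, the 5 highest and 5 lowest correlations were taken. Some genes that these rules name are not reported here. The lists were pro-survival, effector, and BH3-only proteins, other homologues, apoptosome and caspases, inhibitors of apoptosis and their antagonists, death receptors, p53 and targets, FoxO factors, partners, FGF response, and 5 lists of cell markers. Alternatives were limma 3.58.1 with voom, DESeq2 1.42.0, library sizes alone, upper-quartile factors, no low-count filter, a minimum of 10 counts in every library, fits to the compared time points only, a block for replicate number, a threshold of 0.25, and fits without each library.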

Additional observations from a re-analysis of the deposited data

Results flagged for a closer look

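In 8 genes, 24 differences of the FGF6 effect between time points were tested by interaction, and 19 passed an adjusted p of 0.05 (edgeR, over all genes). Of all genes, 30.6% passed from 4 to 8 h, 45.1% from 8 to 24 h, and 53.5% from 4 to 24 h. The differences tested for a gene share libraries, so they are not independent. The 19 differences are given as the later minus the earlier log2 fold change with its SE, and no cause was tested.

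For *Bcl2l11* the difference was −0.49 ± 0.09 from 4 to 8 h (adjusted p = 0.000161), −0.87 ± 0.09 from 8 to 24 h (adjusted p = 1.05e-08), and −1.36 ± 0.09 from 4 to 24 h (adjusted p = 2.04e-12). For *Bbc3* it was −0.73 ± 0.14 from 8 to 24 h and −1.05 ± 0.14 from 4 to 24 h (adjusted p = 0.000132 and 8.1e-07). For *Pmaip1* it was 1.18 ± 0.35 from 4 to 8 h and 1.30 ± 0.34 from 4 to 24 h (adjusted p = 0.0116 and 0.00211), and for *Bcl2* 0.79 ± 0.20 and 0.87 ± 0.21 (adjusted p = 0.00412 and 0.000914).

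For *Mcl1* the differences were 0.11 ± 0.04 from 4 to 8 h, −0.49 ± 0.04 from 8 to 24 h, and −0.37 ± 0.04 from 4 to 24 h (adjusted p = 0.0493, 1.21e-09, and 6.58e-08). The first was lost without any 1 of 8 libraries (0.09 to 0.12, adjusted p 0.0581 to 0.15), namely each Veh 4 h library, FGF6 4 h replicate 1, Veh 8 h replicate 2, FGF6 8 h replicates 1 and 2, and FGF6 24 h replicate 2. It was also lost with no low-count filter (0.11, adjusted p = 0.158) and with at least 10 counts in every library (0.10, adjusted p = 0.0678). For *Bcl2l1* they were 0.20 ± 0.05 from 4 to 8 h and −0.16 ± 0.05 from 8 to 24 h (adjusted p = 0.00469 and 0.0146), the latter −0.13 and not called without Veh 8 h replicate 2 or Veh 24 h replicate 1 and −0.11 with library sizes alone (adjusted p = 0.124). For *Bax* they were −0.26 ± 0.06 from 8 to 24 h and −0.15 ± 0.06 from 4 to 24 h (adjusted p = 0.000704 and 0.0319). The *Bax* difference from 4 to 24 h was lost without any 1 of 8 libraries (−0.15 to −0.08, adjusted p 0.0517 to 0.237), namely Veh 4 h replicates 1 and 2, FGF6 4 h replicate 1, FGF6 8 h replicate 3, Veh 24 h replicates 1 and 2, and FGF6 24 h replicates 1 and 3. The call was also lost with library sizes alone (−0.06, adjusted p = 0.434), with upper-quartile factors (−0.11, adjusted p = 0.12), and with the 8 h libraries left out of the fit (−0.14, adjusted p = 0.0643). For *Bak1* they were −0.17 ± 0.05 from 4 to 8 h, −0.18 ± 0.05 from 8 to 24 h, and −0.36 ± 0.05 from 4 to 24 h (adjusted p = 0.0185, 0.00812, and 5.08e-06). The first was lost without FGF6 4 h replicate 1 or 2, Veh 8 h replicate 2, or FGF6 8 h replicate 3 (−0.14 to −0.13, adjusted p 0.0664 to 0.101). With library sizes alone, the first and second were both −0.13 and not called (adjusted p = 0.0663 and 0.0625).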

How the results depend on the processing

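The number of tested genes lower with FGF6 at 8 h was 3, and 1 with DESeq2 or with only the libraries of that time point, *Bax* and *Bak1* then missing the threshold. Leaving out 1 library gave 1 to 3 for this count. The 8 h value of *Bmf* ranged from −7.20 to −5.96 over the left-out libraries, and no value of *Bmf* was had with at least 10 counts in every library, which removes it. The other counts of genes stayed within 1.5 times under every alternative run. A sign turned in 3 recomputed values, none of them called: *Bcl2* at 4 h was 0.02 without Veh 4 h replicate 1 and 0.01 without FGF6 4 h replicate 3 (−0.24 to 0.02 over the left-out libraries), and *Bak1* at 4 h was −0.04 with library sizes alone. Over 59 values of single genes and 9 alternatives other than left-out libraries, 510 recomputed values kept direction and call, 14 lost the call, and 6 gained it. Library sizes alone moved the median log2 fold change of all genes from −0.05 to −0.15 at 4 h. For same-numbered FGF6 and vehicle libraries of a time point, the deviations from the group means correlated at −0.028 to 0.049. These values show no common pattern, and they cannot tell whether such libraries shared a culture or preparation. With the replicate number as a block, the counts were the same as without it (at 24 h 4 higher and 4 lower), and the 8 h value of *Bmf* was −6.31. Depth limits *Bmf* with FGF6, *Bik*, *Pmaip1*, and *Foxo6*.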
